A study of Mus musculus with 4 samples.

Results

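The accessible chromatin described here lies at 7 long neural genes, most of them of the synapse or of neuronal adhesion: Dlg2, Ptprd, Opcml, Nrxn3, Dlgap1, Anks1b and Myo16. They were chosen from the peak lists themselves. Peaks of the 4 libraries on chromosomes 1 to 19 and X were merged into regions where they shared at least 1 bp, each region went to the nearest protein-coding gene within 100 kb of its midpoint, and each of the 7 genes holds 3 or more regions that were called in both libraries of one genotype and in neither library of the other (mutant-only or control-only, counted together, and both called genotype-specific here). Dlg2, Ptprd and Anks1b hold 3 of 1 kind, and the other genes reach 3 with both kinds. These 7 genes are 7 of 21631 protein-coding genes and hold 143 of 39843 regions. The counts of such genotype-specific regions chose the genes, so they are given as a description, with no test.

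The assay was ATAC-seq, in which a transposase cuts and tags open DNA, on green fluorescent palatal mesenchyme sorted from mouse embryos at E14.5, with 50000 cells pooled per group. The 2 mutant libraries carry Shox2Cre/-;Nkx2.5F/F;R26RmTmG and the 2 control libraries Shox2Cre/+;Nkx2.5F/F;R26RmTmG. Shox2Cre places Cre recombinase at Shox2, a homeobox gene of the anterior palate, so the mutants have no intact Shox2 allele and the controls have 1. All groups are homozygous for a floxed Nkx2.5 allele that Cre can cut, and R26RmTmG turns on green fluorescence after Cre has acted, so sorted cells are the Shox2 lineage and the controls are not wild type. Whether the 2 libraries of a genotype are separate pools of cells is not stated, so their differences may be technical. Peak names in all lists speak of a merged alignment file, and what was merged is not stated, so a library here may already join several runs or samples. A call missing from a pool cannot tell fewer cells with an open site from less open chromatin per cell.

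The lists held 29225 and 31832 peaks in the mutants and 30239 and 22966 in the controls, and control 2 is the short list. No read counts or depths come with them, so no counting error can be attached to a peak. Of 10 palate mesenchyme markers, 5 and 6 in the mutants and 9 and 7 in the controls had a region within 1 kb of a gene end, with Shox2 the marker that had none in any library. Of 15 neuron markers, 8 had one in each of the 4 libraries, including Tubb3 and Snap25, and 7 had none, including Rbfox3 and Stmn2. For the other lists the counts were 4 and 4 in the mutants and 4 and 3 in the controls for 10 Schwann and glial markers, 3 and 3 against 4 and 2 for 7 epithelial, 1 in every library for 5 endothelial and for 4 blood markers, and 1 and 0 against 1 and 0 for 5 skeletal muscle markers. For scale, a peak in all 4 libraries covered 37.1% of 32619 promoters, a different measure from a region within 1 kb of a gene end. The marker counts alone do not show which cells were present. The part of cell mixture in the counts at the 7 genes was not tested.

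Synapses are held together by adhesion proteins that meet across the cleft and by scaffolds that gather receptors beneath the membrane. Neurexins, among them Nrxn3, and type IIa receptor tyrosine phosphatases, among them Ptprd, sit mainly on the axon side, while Dlg2 (PSD-93), Dlgap1 (GKAP) and Anks1b (AIDA-1) belong to the postsynaptic density. Opcml is an IgLON, a cell adhesion protein anchored in the membrane by a lipid, and Myo16 is an unconventional myosin found chiefly in the nervous system. Many such genes are very long because of their introns, and a long gene offers more places where a peak can fall. An open site in mesenchyme does not show that the gene is transcribed there.

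All 7 genes had an open region within 1 kb of an annotated gene end in every library. Of their 43 regions in all libraries 7 lay there (16.3%), and of their 23 genotype-specific regions 0. At the 237 other long genes the shares were 19.5% of 766 regions in all libraries and 2.76% of 181 genotype-specific regions, so most regions of either kind in long genes lie away from the ends. The gene ends and promoter letters come from RefSeq (GRCm38.p6, the same build as the mm10 of the peak lists). The table of promoters held 15 entries for 6 of the 7 genes and none for Ptprd. Of these, 7 promoters of 5 genes were covered by a peak in all 4 libraries and 6 promoters of 4 genes by none. In 3 genes both kinds occur, and the 250 bases before the start are printed for one of each, so that an open and an unmarked start of the same gene can be compared. All lie on the plus strand, and capitals mark CG dinucleotides. Upstream here means before the internal start printed with it. Both upstream starts lie inside their genes, 231 kb from the first gene end in Nrxn3 and 703 kb in Anks1b. The one in Anks1b lies close to chr10:90576367-90577264, a region called in 3 libraries.
Nrxn3 internal start, peak in all 4 libraries, chr12:89812233-89812482: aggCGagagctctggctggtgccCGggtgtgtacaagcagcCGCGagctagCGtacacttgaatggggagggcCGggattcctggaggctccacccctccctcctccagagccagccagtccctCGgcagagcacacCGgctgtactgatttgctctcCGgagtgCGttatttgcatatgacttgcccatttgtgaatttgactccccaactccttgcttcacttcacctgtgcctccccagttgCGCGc
Nrxn3 upstream start, no peak in any library, chr12:88953140-88953389: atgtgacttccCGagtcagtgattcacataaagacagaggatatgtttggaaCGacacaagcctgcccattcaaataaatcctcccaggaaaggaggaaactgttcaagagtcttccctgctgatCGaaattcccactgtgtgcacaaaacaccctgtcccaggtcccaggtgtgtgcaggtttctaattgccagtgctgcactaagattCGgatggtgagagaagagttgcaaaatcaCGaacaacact
Anks1b internal start, peak in all 4 libraries, chr10:90829593-90829842: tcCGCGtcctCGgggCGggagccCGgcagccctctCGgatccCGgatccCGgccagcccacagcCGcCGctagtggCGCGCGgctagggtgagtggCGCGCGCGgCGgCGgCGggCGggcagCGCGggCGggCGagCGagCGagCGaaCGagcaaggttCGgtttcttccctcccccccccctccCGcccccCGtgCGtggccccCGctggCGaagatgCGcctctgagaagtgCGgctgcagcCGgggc
Anks1b upstream start, no peak in any library, chr10:90575477-90575726: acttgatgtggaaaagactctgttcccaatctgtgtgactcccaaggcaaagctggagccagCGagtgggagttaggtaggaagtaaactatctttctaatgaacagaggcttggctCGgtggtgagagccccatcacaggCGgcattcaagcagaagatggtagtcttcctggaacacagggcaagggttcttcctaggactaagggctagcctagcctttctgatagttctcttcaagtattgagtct
Dlgap1 first start, peak in all 4 libraries, chr17:69968823-69969072: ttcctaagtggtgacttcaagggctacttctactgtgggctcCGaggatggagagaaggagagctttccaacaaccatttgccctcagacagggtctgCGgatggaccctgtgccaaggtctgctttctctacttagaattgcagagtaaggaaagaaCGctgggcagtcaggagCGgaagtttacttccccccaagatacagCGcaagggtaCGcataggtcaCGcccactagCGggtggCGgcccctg
Dlgap1 internal start, no peak in any library, chr17:70561497-70561746: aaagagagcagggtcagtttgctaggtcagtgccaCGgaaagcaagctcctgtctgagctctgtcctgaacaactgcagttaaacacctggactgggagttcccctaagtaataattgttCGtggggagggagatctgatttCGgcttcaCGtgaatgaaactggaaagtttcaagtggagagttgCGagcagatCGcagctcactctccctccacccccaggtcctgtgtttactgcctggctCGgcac

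The open starts printed held 12 CG in Nrxn3, 38 in Anks1b and 9 in Dlgap1, against 5, 3 and 7 in the unmarked starts printed for the same genes. The 38 is the most of the 15 member promoters. Other Anks1b starts with a peak in all 4 libraries held 20 and 30 CG, and one with a peak in 3 libraries held 7. Over all member promoters the median was 14 CG with a peak in all 4 libraries and 2.5 with none, while over the 32619 promoters of the table it was 18 and 3. In the whole table a peak in all 4 libraries covered 3.71% of promoters with under 5 CG, 27.9% of those with 5 to 9, 67.9% of those with 10 to 14 and 84.7% of those with 15 or more. The open starts of Opcml (8 CG) and Dlgap1 (9 CG) thus fell in a class where fewer promoters are open, and the 14 CG start of Myo16 in a class where most are. TAATTA, the core bound by many homeodomain proteins and its own reverse complement, was in 0 of the 15 member promoters and in 4.80% of all. TGANTCA, the AP-1 site, searched on both strands, was in 1 of the 15 and in 6.78% of all, and neither motif contains the other. TATAAA, the TATA box, was in 1 of the 15 and in 12.4% of all.

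Nrxn3 encodes a neurexin, a presynaptic receptor for neuroligins, and is read from several starts. It spans 1612 kb (chr12:88722701-90334935), rank 9 by length among protein-coding genes. It had 16 and 16 listed peaks in the mutants and 13 and 9 in the controls. These counts include the mutant-only and control-only regions that chose the gene, so nothing is read from the difference. Its strongest region, chr12:89811561-89813037, covers the internal start printed above. There the authors' fold enrichment, the height of a peak over an unstated background, was 12.1 and 12.8 in the mutants and 11.6 and 12.5 in the controls, and the groups overlap. Ranked by −log10 p among the peaks of its own library, this peak stood at percentiles 97.3 and 99.0 in the mutants and 96.5 and 98.1 in the controls. The region at the first gene end, chr12:88722514-88723370, was of middle rank, with fold enrichments of 7.36 and 8.19 in the mutants and 9.17 and 8.05 in the controls.

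Of the 20 regions of Nrxn3, 6 were called in all libraries, 2 were mutant-only and 1 was control-only. The mutant-only regions lay at chr12:88992037-88992601 and chr12:89286776-89287481, with fold enrichments of 5.34 and 6.40 at the first and 5.19 and 6.04 at the second. They stand between the first gene end and the internal start, as does the control-only region. The control-only region, chr12:89505033-89505620, had fold enrichments of 7.20 and 7.74 and percentiles of 36.2 and 41.4. Its fold enrichments were the highest of the 7 control-only regions.

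Ptprd encodes a receptor tyrosine phosphatase that acts as a presynaptic organiser. At 2271 kb (chr4:75941237-78211742) it is the rank 2 protein-coding gene by length. It had 14 and 21 peaks in the mutants and 15 and 9 in the controls. Mutant 2 was the highest and control 2 the lowest, and mutant 1 lay below control 1. At chr4:78211150-78212542, the end of the gene with the higher coordinate, the fold enrichment was 11.02 and 11.3 in the mutants and 10.5 and 8.88 in the controls. Of its 24 regions 6 were in all libraries, 3 were mutant-only and 1 was control-only.

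The control-only region of Ptprd, chr4:75965296-75966166 (fold enrichment 6.69 and 5.74), and a mutant-only region, chr4:75994466-75994980 (3.94 and 3.59), both lie near the lower end of the gene. This mutant-only region is 0.670 kb from a region called in all libraries. The other mutant-only regions, chr4:76502220-76503707 and chr4:77258978-77260070, had fold enrichments of 4.81 and 5.12 and of 5.47 and 6.82. The last is 259 kb from the nearest region in all libraries, the farthest of the 23.

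Opcml, the IgLON gene, spans 1135 kb (chr9:27790716-28925410). It had 9 and 13 peaks in the mutants and 11 and 7 in the controls, so the groups overlap. The region at its start, chr9:27790738-27791838, had fold enrichments of 8.10 and 8.41 in the mutants and 7.35 and 8.45 in the controls. Opcml was the only one of the 7 genes with more control-only regions (2) than mutant-only regions (1). The control-only regions were chr9:28261294-28261819, with fold enrichments of 6.94 and 6.48, and chr9:28898870-28899531, with 5.12 and 7.18. The mutant-only region, chr9:28568951-28569816, lies between them, with 5.42 and 5.20.

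Dlg2 encodes a membrane-associated guanylate kinase that anchors receptors and channels. It spans 1973 kb (chr7:90476188-92449246), rank 7 by length. It had 24 and 28 peaks in the mutants and 24 and 20 in the controls, and mutant 1 equalled control 1. The region at chr7:90475597-90476887 had the highest fold enrichment of all 143 regions in each library, at 13.996 and 14.1 in the mutants and 14.9 and 13.7 in the controls. Its percentiles were 98.3 and 98.3 against 98.7 and 98.0. Dlg2 also held the most regions of the 7 genes, 38, of which 13 were in all libraries and 13 in 1 library only.

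In Dlg2 3 regions were mutant-only and 1 was control-only. The mutant-only regions were chr7:90553230-90553923 with fold enrichments of 5.004 and 5.63, chr7:91267665-91268401 with 6.35 and 4.41, and chr7:92026977-92027504 with 5.95 and 5.84. The second of these had the lowest single percentile of the 23, 0.598 in mutant 2, against 18.5 in mutant 1. The control-only region, chr7:92105437-92105960, had 5.10 and 4.78 and lies 2.03 kb from a region called in all libraries. No region of Dlg2 followed the replicate number, and 2 followed the crossed pairing.

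Dlgap1 encodes a protein that links MAGUK scaffolds to Shank proteins, and spans 852 kb (chr17:69969073-70821413). It had 14 and 17 peaks in the mutants and 16 and 12 in the controls. The region over its start, chr17:69968832-69970012, had fold enrichments of 12.0 and 12.7 in the mutants and 12.9 and 10.7 in the controls. Dlgap1 had the highest density of regions, 20.7 per Mb of territory, the stretch of genome within 100 kb whose nearest protein-coding gene it is. Its mutant-only regions were chr17:70331093-70331950, with fold enrichments of 6.27 and 6.12, and chr17:70780737-70781708, with 4.35 and 5.51. Its control-only region, chr17:69879356-69880418, had 4.34 and 4.90 and lies 89.2 kb outside the gene, so its link to Dlgap1 rests on distance alone.

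Anks1b encodes a postsynaptic scaffold with ankyrin repeats, and spans 1100 kb (chr10:89872915-90973300). It had 10 and 10 peaks in the mutants and 7 and 7 in the controls. The groups do not overlap, as in Nrxn3, but the mutant-only regions that chose the gene add peaks to both mutants and to no control. Nothing is read from the difference. The 3 genotype-specific regions of Anks1b were all mutant-only. The region chr10:90969392-90970336 had percentiles of 43.5 and 43.8 and fold enrichments of 5.46 and 5.31, and was the highest ranked of the 16 mutant-only regions. The others were chr10:90596110-90596660, with 6.82 and 5.69, and chr10:90657599-90658309, with 4.97 and 4.97. At the first end, chr10:89872389-89873978, the fold enrichment was 7.04 and 7.46 in the mutants and 7.48 and 8.03 in the controls. At the CG-rich internal start, chr10:90828797-90829941, it was 5.59 and 5.60 against 6.40 and 5.37.

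Myo16 spans 480.8 kb (chr8:10153911-10634742), the shortest of the 7 and rank 244. It had 8 and 8 peaks in the mutants and 9 and 3 in the controls, so control 2 stands apart and control 1 was the highest. At its start, chr8:10153424-10154541, the fold enrichment was 7.62 and 9.84 in the mutants and 8.17 and 8.80 in the controls. The mutant-only regions were chr8:10255680-10256227, with 5.82 and 6.06, and chr8:10405386-10406065, with 4.73 and 5.71. The control-only region, chr8:10653181-10653844, had 6.44 and 5.13 and lies 18.8 kb outside the gene.

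**Figure D1:**
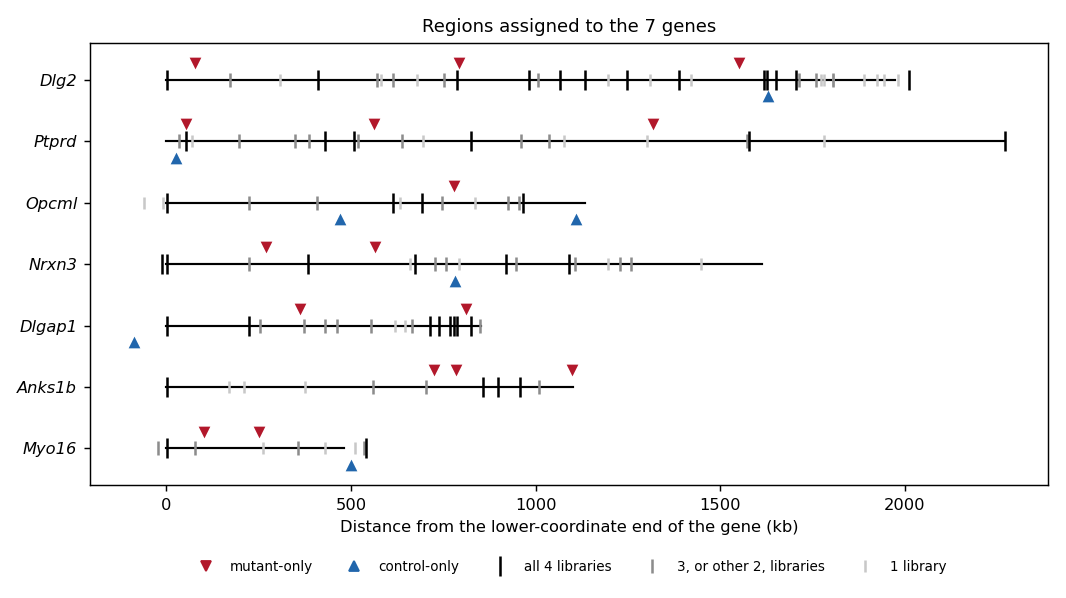
Positions of the 143 regions at the 7 genes, in kb from the lower-coordinate end of each gene, with black lines for gene bodies. Red and blue triangles are mutant-only and control-only regions, ticks are all others, and 21 of the 23 triangles lie inside a gene and 0 within 1 kb of a gene end.

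**Figure D2:**
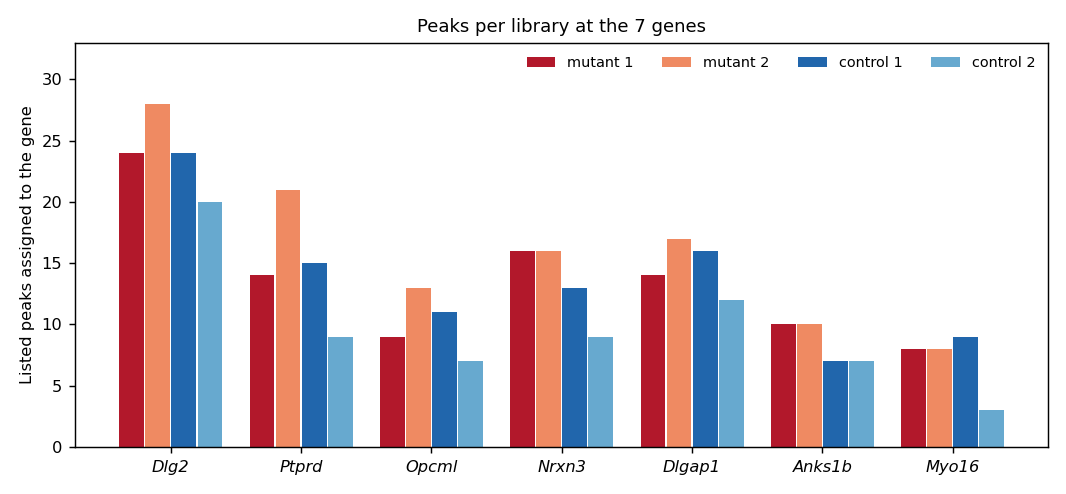
Listed peaks assigned to each gene in the 2 mutant and the 2 control libraries. Each bar is 1 library, control 2 is lowest or tied for lowest in all 7 genes, and the totals are 95 and 113 in the mutants against 95 and 67 in the controls.

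Together the 7 genes held 16 mutant-only and 7 control-only regions, 11.2% and 4.90% of their 143 regions. Over all regions, 4.47% were mutant-only and 1.07% control-only, and 5.54% were either. The rule selects for many such regions, so nothing is read from the excess. The ratio of mutant-only to control-only regions was 2.29 at the 7 genes and 4.19 over all regions. Regions in all 4 libraries made up 30.1% of the members' regions, 33.2% of those at the 237 other long genes and 47.4% of all regions. The 143 include the regions that chose the genes, which by the rule cannot be in all 4 libraries. Inside a gene body lay 91.6% of the members' regions.

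The count at single genes moved when 1 library was left out, which also lets a region pass on 1 library of that genotype. Without mutant 1, mutant 2, control 1 and control 2 in turn, Dlg2 had 12, 6, 7 and 10 genotype-specific regions, against 4 with all libraries. In the same order Ptprd had 8, 6, 7 and 4 against 4, Opcml 7, 4, 6 and 3 against 3, and Nrxn3 4, 5, 8 and 5 against 3. Leaving out control 1 gave the most in Nrxn3, Dlgap1 (6) and Myo16 (6), and Anks1b had 5, 5, 5 and 3 against 3.

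Genotype-specific regions of the 7 genes were mostly low-ranked peaks. Each region was given its lowest percentile among the libraries that hold it, called here the lower percentile, with a median of 11.8 for the 16 mutant-only regions and 6.48 for the 7 control-only regions. Elsewhere it was 13.1 and 9.26, above the members' medians in both classes. The 13 regions of the other 2-library classes at the members had a median of 21.1, but elsewhere the 3680 such regions had 11.4, under the mutant-only regions there. The 43 regions in all libraries at the members had 38.2, against 56.7 for such regions elsewhere. These sets differ in position, since 16.3% of such regions at the members but 54.5% at all other genes lay within 1 kb of a gene end. No such median was taken for other long genes, and the part of position was not tested. In 21 of the 23 genotype-specific regions the lower percentile was under 25. The median distance to the nearest region in all libraries was 88.4 kb.

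**Figure D3:**
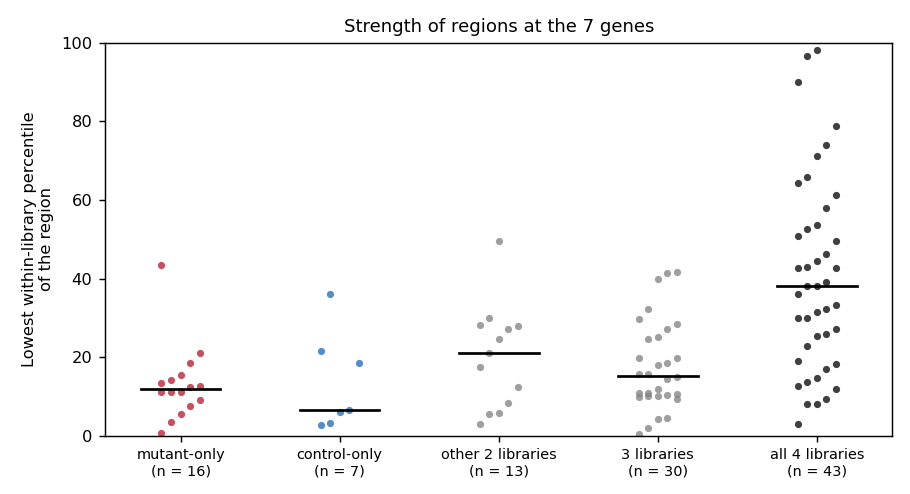
Lower percentile of the members' regions by the libraries that hold them, with 1 point per region and a bar at the median. The medians of 11.8 for mutant-only and 6.48 for control-only regions stand below the 38.2 of regions in all libraries.

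Peaks in the deposited files carry running numbers with gaps, so numbered peaks had been taken out before deposit. The 23 genotype-specific regions have 46 missing calls, and in all 46 numbered peaks were missing between the neighbouring listed peaks. They numbered 1 to 24, with a median of 7, over a median gap of 184 kb. Over the whole lists only 25.8% and 26.7% of numbered peaks were listed in the mutants and 27.8% and 23.8% in the controls. Missing numbers are thus common everywhere, gaps elsewhere were not counted, and nothing is read from the 46. Whether a peak taken out lay at the region itself cannot be told, so a missing call need not mean that no peak was found. At most 450 and 499 numbered peaks fell inside the 7 genes in the mutants and 399 and 396 in the controls, or 39.7 and 41.8 against 36.7 and 41.0 per 10000 numbered peaks. The groups overlap on that scale. Listed were 19.6% and 21.0% of them in the mutants and 21.8% and 15.2% in the controls, against 14.6% and 15.6% and 16.3% and 11.2% inside 236 other long genes. In every library the shares at the 7 genes were above those of the other long genes and below those of the whole list. Of the 23 regions that chose the genes 21 lie inside them and count as listed, so nothing is read from these differences.

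Gene length went with the number of regions. Among the 14714 genes with a region, Spearman's rho between length and number of regions was 0.48, and between length and number of genotype-specific regions 0.21; genes are not independent replicates, and counts share the 4 libraries. The mean number of genotype-specific regions per gene was 0.0275 for genes under 10 kb, 0.0529 for 10 to 50 kb, 0.104 for 50 to 100 kb, 0.202 for 100 to 200 kb, 0.438 up to the length of Myo16 and 0.836 from there on. Per Mb of territory the rate showed no steady order with length, with 0.794, 0.938, 0.891, 1.02, 1.15 and 0.891 in the same classes. Among the 244 genes at least as long as Myo16, rho with length was 0.14, and rho between all regions and genotype-specific regions was 0.47.

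In these 244 genes, 14 had 3 or more genotype-specific regions (5.74%), against 27 of all genes (0.125%). The 7 members are 7 of the 14. Among the 237 other long genes, 110 had 0 such regions, 80 had 1 and 40 had 2. Just below the threshold, the longest genes with 2 were Lsamp, Csmd1, Fhit, Ctnna3 and Magi2. In the 10.3 Mb of territory of the 7 genes, 9.78 genotype-specific regions were expected from the rate over all genes, and 23 were seen, a ratio of 2.35. The ratio was 1.13 with equal numbers of peaks from each library, 0.666 in the upper 50% of each list and 1.45 when expected from gene length alone. Myo16, the shortest, had the largest ratio, 4.94 (3 against 0.607), and Ptprd, the longest, the smallest, 1.71 (4 against 2.34). Each member holds 3 or 4 such regions, and 3 is the least the rule allows, so the ratio mostly reflects territory. Nothing is read from this order.

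The 7 genes had 143 regions where 192 were expected from territory, a ratio of 0.743, and 43 in all libraries where 96.9 were expected (0.444). Against other long genes, where regions are sparser, the ratios were 1.31 and 1.19. The 143 include the 23 regions that chose the genes, where 8.54 were expected from other long genes, so nothing is read from the 1.31. Dlg2, Dlgap1 and Myo16 held 18.7, 20.7 and 18.8 regions per Mb, close to the 18.7 of all genes, while Ptprd had 9.71, Nrxn3 11.04, Anks1b 11.5 and Opcml 12.6, close to the 10.6 of other long genes.

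**Figure D4:**
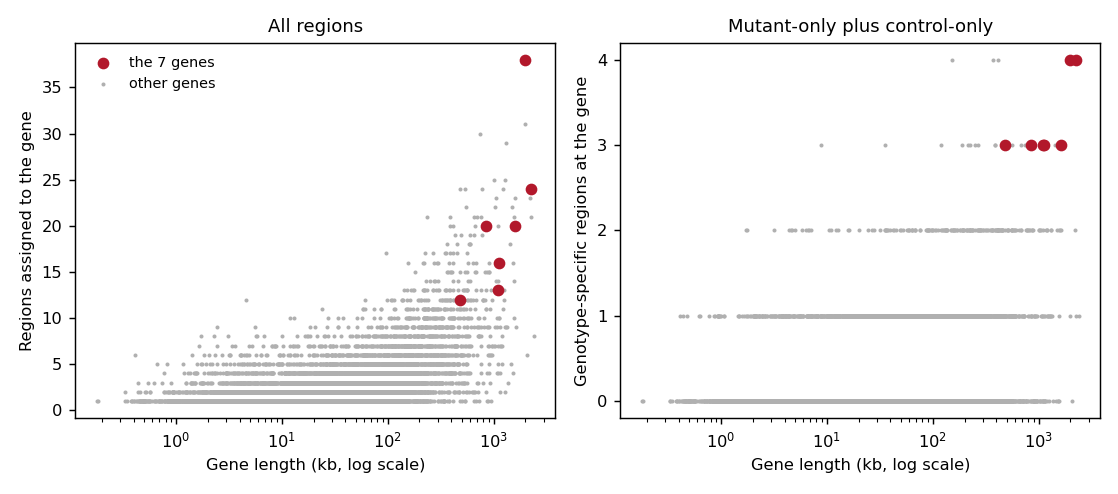
Number of regions (left) and of mutant-only plus control-only regions (right) against gene length on a log scale, 1 point per gene with a region. The 7 genes, in red, have 12 to 38 regions and 3 or 4 genotype-specific ones, and Myo16 is the shortest of them at 480.8 kb.

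The 4 libraries can also be paired by replicate number (mutant 1 with control 1, mutant 2 with control 2) and crossed (mutant 1 with control 2, mutant 2 with control 1). These pairings were not used to choose the genes. Regions called in exactly the libraries of 1 pair numbered 6 by replicate number and 7 crossed at the 7 genes, where 4.02% and 5.25% of all regions are of these kinds. Per Mb of territory this was 0.582 and 0.679, against 0.535 and 0.654 at the 237 other long genes and 0.720 and 0.950 at all genes. By genotype it was 2.23 at the 7 genes, against 0.828 and 0.948. In both other pairings the 7 genes thus stood between other long genes and all genes.

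The crossed regions at the members were 7 of mutant 2 with control 1 and 0 of mutant 1 with control 2. By replicate number they were 4 of mutant 1 with control 1 and 2 of mutant 2 with control 2. Classes with control 2 were the smaller in each pairing, as over all regions. Of the 30 regions called in 3 libraries at the members, 19 lacked control 2, and of the 34 in a single library 17 were in mutant 2. Over all regions, control 2 was the missing library in 60.7% and mutant 2 the single one in 39.1%.

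Genes with 3 or more regions also occurred under the other pairings. There were 27 by genotype, 31 crossed (0.143% of genes) and 9 by replicate number (0.0416%). Among the 244 long genes they were 14, 7 and 5. Ptprd reached 3 in the crossed pairing as well, and no member reached 3 by replicate number. Gpc5, a glypican gene of 1433 kb, reached 3 under all pairings, with 3 by genotype, 4 by replicate number and 3 crossed. Most at 1 gene were 4 by genotype, 5 crossed and 4 by replicate number.

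**Figure D5:**
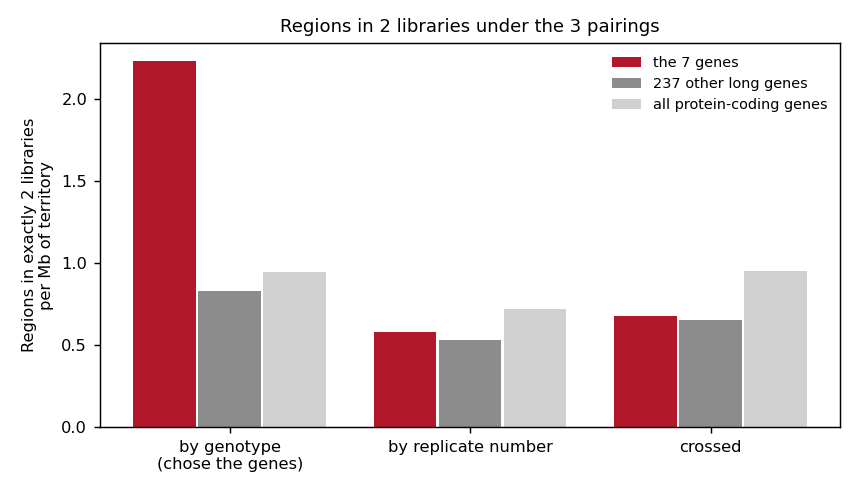
Regions in exactly 2 libraries per Mb of territory under the 3 pairings, for the 7 genes (red), 237 other long genes and all protein-coding genes. The bar of 2.23 for the pairing by genotype is the count that chose the genes, and the other red bars are 0.582 and 0.679.

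The counts depended on list length. With the 22959 highest ranked peaks of every library, the 7 genes held 2 mutant-only and 5 control-only regions, where 2.39% and 2.14% of all regions were of these kinds. Only Dlgap1 then held 3. Of the 16 mutant-only regions of the full lists 1 remained, the one at the upper end of Anks1b, 5 were left in 1 mutant library and 10 in none. Of the 7 control-only regions 3 remained, those of Ptprd, of Nrxn3 and at chr9:28261294-28261819 in Opcml, and 4 were left in control 2 only. The other 3 at equal numbers were all in Dlgap1 and were made by dropping weaker calls, among them chr17:70222613-70223451 and chr17:70341719-70342389, each called in mutant 2 and both controls in the full lists. By replicate number there were then 10 regions and crossed 9, so the pairing by genotype, with 7, was the smallest of the 3.

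Peaks per 10000 listed peaks at the 7 genes were 32.5 and 35.5 in the mutants and 31.4 and 29.2 in the controls, a difference of 3.71 that includes the regions which chose the genes. With equal numbers of peaks the difference was −0.436. In Nrxn3 the values were 5.48 and 5.03 in the mutants and 4.30 and 3.92 in the controls, and in Anks1b 3.42 and 3.14 against 2.32 and 3.05. In these 2 genes both mutants exceeded both controls. The mutant-only regions that chose these genes are among the peaks and add to both mutants only, so nothing is read from this. In Dlgap1 the values were 4.79 and 5.34 against 5.29 and 5.23, and the groups overlap, as in the 4 others.

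The 43 member regions in all 4 libraries were not counted by the rule, but the mutants and controls are the same libraries, so their ranks too are a description. Their median percentile was 57.9 and 57.8 in the mutants and 55.1 and 39.1 in the controls. Control 2 was low here, and over all 18904 such regions it was 58.8 against 67.6 to 70.2 in the other libraries, since its list is short. Both mutants ranked above both controls in 20 of the 43, and below in 1, where 29.1% and 5.61% of all such regions did so. Ranked among regions in all libraries only, which takes list length out, both mutants were above in 11 (25.6%) and below in 5 (11.6%), where 17.6% and 18.0% of all such regions were.

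Related genes showed where the 7 stand. The family relatives come from the Dlg, Dlgap, type IIa receptor phosphatase, IgLON and neurexin families. Of the 15 relatives with a gene entry, 5 had a mutant-only and 1 a control-only region, where 5.73% and 1.68% of all genes and 48.8% and 13.9% of genes as long as Myo16 have one. Of the 15, 0 reached 3. Lsamp, an IgLON gene of 2197 kb, had 2 mutant-only among 23 regions. Ntm, another IgLON gene, had 1 mutant-only among 12, Negr1 2 among 13, and Dlgap2 0 of either among 9.

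Synaptic partners of the members, such as neuroligins, Lrrtm proteins, Shank proteins and glutamate receptors, had few regions at all. Of 29 genes 4 had a mutant-only and 1 a control-only region, and 0 reached 3, where 5.73% and 1.68% of all genes have one and 0.125% reach 3. Il1rapl1 had 0 genotype-specific among 3 regions, Nlgn1 0 among 7, Lrrtm4 0 among 3, Il1rapl2 1 mutant-only among 2 and Lrrc4c 2 mutant-only among 9. The list as a whole had 7.67 regions per Mb, against 11.04 in Nrxn3 and 9.71 in Ptprd.

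The 48 other long neural genes had 25 mutant-only and 5 control-only regions at a median length of 1080 kb, or 0.522 per Mb, and 1 of them, Gpc5, reached 3. Of all genes as long as Myo16, 5.74% reach 3, at 0.891 genotype-specific regions per Mb. Cntnap2, at 2241 kb the nearest to Ptprd below it in length, had 1 mutant-only among 21 regions. Lrp1b had 0 among 6, Csmd1 2 mutant-only among 9, Pcdh15 0 among 10 and Rbfox1 0 among 16.

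Of 30 long genes known for use outside neurons, 21 had a mutant-only and 7 a control-only region, 1.44 per Mb, and 4 reached 3, namely Nfib, Ebf1, Zbtb20 and Maml2. Of genes as long as Myo16, 48.8% and 13.9% have such a region and 5.74% reach 3, but Nfib, Ebf1 and Maml2 are shorter. The lists were chosen with earlier results of these data known, so nothing is read from 1.44 against 0.522 per Mb in long neural genes. Dmd, the dystrophin gene and longer than Ptprd, had 1 mutant-only among 8 regions. Macrod2 had 1 among 31, Fhit 2 among 23, Ctnna3 2 among 14, all mutant-only, and Naaladl2 1 control-only among 9. Over all genes as long as Myo16 the median was 1 genotype-specific region, as in this list, while the other 3 lists had a median of 0. The median length was 558 kb in this list, 114 kb for the family relatives and 51.2 kb for the synaptic partners, and genes of the shorter classes have a median of 0 too.

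Next to Opcml in length, Dab1 had 1 mutant-only and Kcnip4 0 genotype-specific regions. Next to Dlgap1, Sugct and Marchf1 had 0, and next to Anks1b, Ctnna2 had 2 mutant-only and Auts2 0. Next to Myo16, Mageb18 had 0 among 1 region and Skint6 had no region. Besides the members, the longest genes with 3 were Gpc5, Etl4, Zbtb20, Tenm4 and Ptprm, each with 3 mutant-only and 0 control-only regions. The 20 other genes with 3 or more had a median length of 379 kb and 51 mutant-only and 12 control-only regions.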

How the data were processed

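ATAC-seq peak lists of 4 libraries were used, grouped by the genotype in the labels. The authors deposited 1 list per library in the 10 columns of the narrowPeak layout. The genome build is mm10, as the submitters' processing notes name it. Not given in the sources used here are the aligner, any transposase offset, the peak caller and how numbered peaks were removed. The deposited score was the whole part of 10 times the −log10 p of a peak in all but 5 rows of the 4 lists. The deposited −log10 p and −log10 q values and the fold enrichment, a ratio read as such from its values and place in the layout, belong to single peaks and were used to rank and describe peaks within a list. The deposited summit offset was not used, and read depth is unknown.

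Peaks were merged, assigned and counted with Python 3.11.15, numpy 2.4.6, pandas 2.3.3 and scipy 1.17.1, on RefSeq gene starts and ends of GRCm38.p6. Where a midpoint lay inside several genes, the gene with the nearer end took it. Territory was measured on a 1 kb grid. Merging, classes and assignment were tested on simulated lists. Exact permutation tests over the 4 libraries cannot go under p = 0.33 here. Genes named are the 7 members and their genotype-specific regions, their neighbours in length, the 5 longest others with 3 or more such regions and the 5 longest with a region of each list, of which 1 is not reported here; genes with 2 regions, genes under other pairings and marker examples were named after their values were seen. The members and lists were chosen with earlier results of these data known.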

Additional observations from a re-analysis of the deposited data

How the results depend on the processing

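Merging peaks up to 200 bp apart, or 500 bp around each centre, left all counts by pairing at the 7 genes as reported, and assignment within 10 kb, inside genes or to genes of any type kept them within 1.5 times, while 5, 5 and 6 of the 7 genes then still held 3. With equal numbers of peaks there were 2 mutant-only and 5 control-only regions, 7 by genotype, 10 by replicate number and 9 crossed, and genotype-specific regions were 1.13 times the expected number. Taking the upper 50% by rank gave 2 mutant-only and 0 control-only regions, 2 by genotype, 1 by replicate number and 4 crossed, with 0.666 times the expected genotype-specific regions and 0.491 times the expected total. From gene length alone these ratios were 1.45 and 0.457. Leaving out 1 library, which lowers the number that must agree, gave 19 to 35 mutant-only and 10 to 14 control-only regions; mutant-only regions numbered 33 without mutant 1 and 35 without control 1, and control-only regions 12 without mutant 2 and 14 without control 2. The cause of these changes was not tested.

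Planned tests over libraries are given for completeness, since the genes were chosen on this contrast. The difference of mutants minus controls in peaks per 10000 was 3.71 (exact permutation p = 0.33, the smallest possible), −0.436 with equal numbers of peaks (exact permutation p = 1) and 2.21 to 5.20 with 1 library left out. With the replicate block it was 3.71 (exact sign-flip p = 0.5, the smallest possible). The median percentile of regions in all libraries differed by 10.8 points (exact permutation p = 0.33), by 10.8 with the replicate block (exact p = 0.5) and by 4.69 when ranked among such regions only, a setting chosen after the data were seen. Without control 2 the difference was 2.72 and without control 1 18.8. The labels do not say that the numbers pair the samples. Regions by replicate number (6) were about as many as crossed ones (7). A yield-balanced ratio was planned and could not be had, since mutant 1 with control 2 held 0 regions. Unknown read depth limits every call.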
